A study of Rattus norvegicus with 9 samples.

Results

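The genes described here are 34 genes of glycolysis and of the response to low oxygen: transporters that carry glucose and lactate, the glycolytic enzymes, the kinases that steer pyruvate, and regulators and targets of the hypoxia-inducible factor HIF. They were taken by name from a list, and that list was chosen with earlier results of these data known. All 34 were found among the 14506 genes tested, each read from the array entry with the highest mean where a gene had several. The cells were pancreatic stellate cells of male Sprague Dawley rats, isolated on a Nycodenz density gradient. Stellate cells are the fibroblast-like cells that lay down scar matrix in the pancreas. All cells were seeded at equal numbers and kept for 72 hours in dishes of 10 cm, in Iscove's medium with 10% foetal bovine serum. The surfaces were plastic (4 arrays), collagen I, the abundant fibre-forming collagen of scars (3 arrays), and Matrigel, a basement membrane extract (2 arrays). Sample titles carry 1 of 4 letters that recur across surfaces (A, P, S and Z), and no label explains them. Plastic replicates 1 to 4 carry A, P, S and Z, collagen replicates 1 to 3 carry A, P and Z, and Matrigel replicates 1 and 2 carry A and S. No label says that arrays of a surface are separate animals or cultures, and the p-values here therefore reflect just the spread among these samples, which may be technical. Oxygen, glucose and lactate in the dishes are not described in the labels.

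Glycolysis splits glucose into pyruvate in the cytosol and yields ATP without oxygen. The pyruvate is either reduced to lactate and exported, or oxidised in mitochondria through pyruvate dehydrogenase, which the PDK kinases switch off. HIF is a transcription factor whose alpha subunit is marked for destruction by prolyl hydroxylases (the EGLN enzymes) when oxygen is present. When oxygen falls, the alpha subunit persists, pairs with ARNT, and raises transcription of most glycolytic genes and of stress genes such as Adm, Bnip3 and Ndrg1. HIF1A is controlled mainly as a protein, so its transcript does not report its activity.

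Values are levels on the log2 scale, and a difference of 1 on that scale is a 2-fold difference. A level below 4.25, the 40th percentile of the mean levels of all tested genes, is called dim here, and a difference from a dim group is given as a lower bound. Arrays correlated at 0.991 to 0.996 within a surface and at 0.975 to 0.989 between surfaces. Of 16 stellate cell markers, 15 were above the dim level on every surface and Gfap was dim on all of them. Their mean ranged from 10.40 to 10.54 on plastic, 10.49 to 10.65 on collagen I and 9.96 to 10.06 on Matrigel. Against plastic, 5 of the 16 differed on Matrigel by the test (Des, Thy1, Fn1, Lum and Col3a1), 1 higher and 4 lower. On collagen I 2 of the 16 did (Des and Postn), 1 higher and 1 lower. Of all tested genes 10.4% differed on Matrigel and 6.12% on collagen I. Markers of some other pancreatic cells moved with the Matrigel arrays. The mean of 13 islet markers was 7.51 and 6.27 on Matrigel replicates 1 and 2, against 4.90 to 5.78 on plastic and 5.21 to 5.82 on collagen I, and 8 of the 13 rose on Matrigel against plastic. The mean of 17 macrophage markers was 7.68 and 7.91 on Matrigel, 6.40 to 7.40 on plastic and 6.39 to 7.33 on collagen I. Their median difference on Matrigel from plastic was 1.04, with 0 of the 17 lower on Matrigel and 2 higher by the test. The mean of 14 acinar markers was 4.69 and 3.93 on Matrigel and at most 3.81 elsewhere, with 10 of the 14 dim even on Matrigel. The 10 duct markers had means of 3.94 and 3.22 on Matrigel and at most 3.21 elsewhere, and 0 of the 10 differed from plastic on Matrigel by the test. The 9 endothelial markers lay at 4.04 to 4.19 on all surfaces. The part of these cells in the Matrigel differences below was not tested. In bulk cultures fewer cells of a type and less RNA per cell cannot be told apart.

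On Matrigel against plastic, 10 of the 34 genes passed the test (limma, adjusted p under 0.05 after Benjamini-Hochberg adjustment over all tested genes), where 10.4% of all tested genes did. Pdk4, Egln3, Hk2, Ddit4 and Slc2a1 rose (5 of 34, against 4.52% of all genes), and Adm, Pfkm, Slc2a3, Aldoc and Pgk1 fell (5 of 34, against 5.85%). On collagen I against plastic 6 of 34 passed, against 6.12% of all genes. Egln3 rose (1 of 34, against 2.95%), and Adm, Ankrd37, Pgam1, Ndrg1 and Gpi fell (5 of 34, against 3.17%). Between Matrigel and collagen I 3 of 34 passed, against 2.67% of all genes, with Pdk4 higher (1 of 34, against 1.21%) and Pfkm and Slc2a3 lower (2 of 34, against 1.45%) on Matrigel. The genes therefore moved in both directions. Of the 34, 20 passed in no comparison, a share that was not counted over all genes. The median of the 34 differences was -0.069 for Matrigel minus plastic, 0.00061 for collagen minus plastic and 0.026 for Matrigel minus collagen, and over all tested genes -0.011, 0.0021 and -0.018. The median size of the differences, without sign, was 0.35, 0.15 and 0.22 in the 34 and 0.13, 0.10 and 0.12 over all genes, of which 5584 were dim on every surface, as none of the 34 was. The values of the compared surfaces did not overlap for 17, 12 and 16 of the 34, where 30.2%, 17.2% and 29.5% of all genes did not. Over all genes 655 rose and 849 fell on Matrigel against plastic, and 176 were higher and 211 lower on Matrigel than on collagen I. Once each array was re-centred on the median of all its entries, these became 512 and 1036, and 122 and 259. No gene among the 34 that passed then changed direction. Slc2a1 on Matrigel (limma adjusted p = 0.132) and Gpi (0.0743) and Pgam1 (0.0531) on collagen I no longer passed, whereas Tpi1 passed on Matrigel. Those calls were also lost with each array re-centred on its median over the tested genes. Both comparisons with plastic rest on the same plastic arrays.

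**Figure D1:**
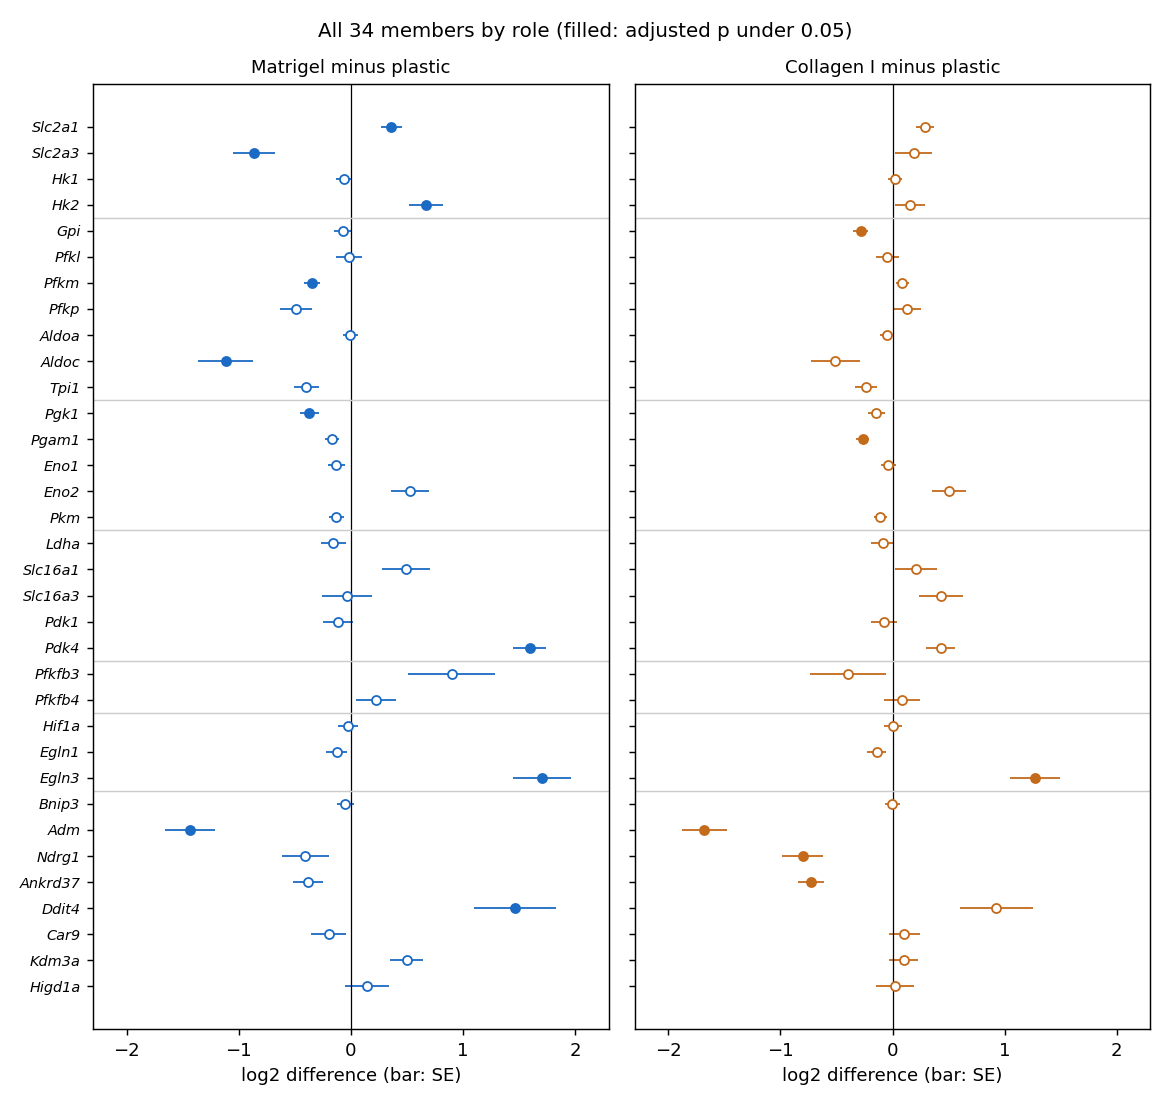
Log2 difference of each of the 34 genes, ordered by role, for Matrigel minus plastic (left) and collagen I minus plastic (right). Bars are standard errors, and filled points are the 10 and 6 genes with an adjusted p under 0.05, which lie on both sides of 0.

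**Figure D2:**
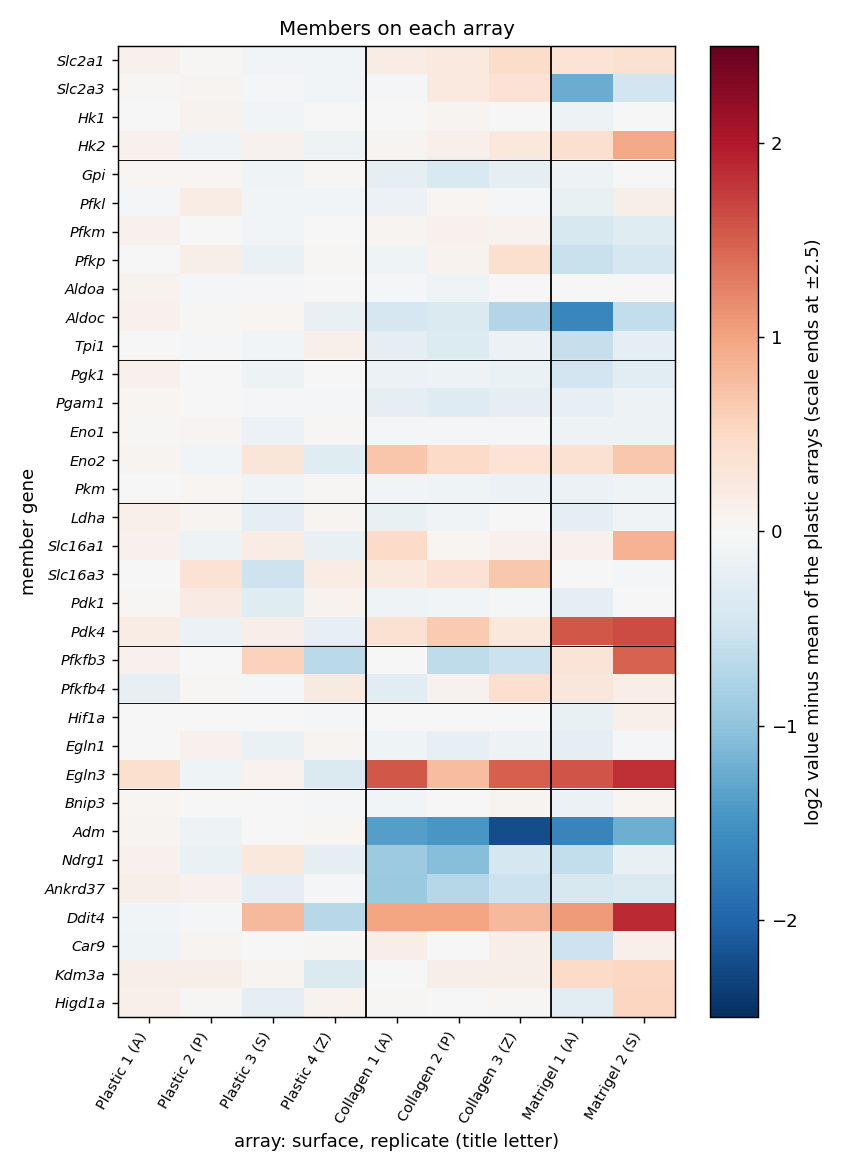
Value of each of the 34 genes on each of the 9 arrays, as the log2 level minus the mean of the 4 plastic arrays (colour scale from -2.5 to 2.5). Egln3 is above the plastic mean and Adm below it on all 5 matrix arrays, while most enzymes stay near 0.

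Glucose enters these cells through facilitative transporters and is trapped by hexokinases. Of these 4 genes 3 passed on Matrigel against plastic, in opposite directions, where 10.4% of all tested genes passed. Slc2a1 encodes GLUT1, the broadly expressed basal glucose transporter. Slc2a1 read 10.13, 10.06, 9.95 and 9.97 on plastic, 10.21, 10.27 and 10.48 on collagen I, and 10.37 and 10.41 on Matrigel. All 5 matrix values lay above all 4 plastic values. The rise on Matrigel was 0.36 (SE 0.093, limma adjusted p = 0.0430), and the difference on collagen I, 0.29 (SE 0.082), did not pass (adjusted p = 0.0830). Slc2a3 encodes GLUT3, a transporter of high glucose affinity. Slc2a3 read 9.61, 9.66, 9.56 and 9.52 on plastic, 9.56, 9.82 and 9.95 on collagen I, and 8.35 and 9.10 on Matrigel. Both Matrigel values lay below all 7 others, and the Matrigel arrays differed from each other by more than the other surfaces did internally. Slc2a3 fell by 0.86 against plastic (SE 0.19, adjusted p = 0.0228) and by 1.05 against collagen I (SE 0.20, adjusted p = 0.0345). Hk2, the inducible hexokinase, was at 9.27, 9.06, 9.25 and 9.02 on plastic, 9.22, 9.28 and 9.42 on collagen I, and 9.54 and 10.10 on Matrigel. Both Matrigel arrays were above all others, and Hk2 rose by 0.67 against plastic (SE 0.15, adjusted p = 0.0261). Hk1, the constitutive hexokinase, stayed within 8.98 to 9.19 on all 9 arrays, with a difference of -0.064 on Matrigel (95% interval -0.23 to 0.10). Without Matrigel replicate 1 the Slc2a3 difference was -0.49 from plastic (adjusted p = 0.103) and -0.67 from collagen I (0.0800), the first call was also lost without plastic replicates 1, 2 or 4 (0.0506 to 0.0601) and the second without any 1 collagen or plastic array (0.0501 to 0.111). The Hk2 difference without Matrigel replicate 2 was 0.39 (0.120) and its call was lost without plastic replicates 2 or 4 too (0.0622 and 0.0662), while Slc2a1 passed only without collagen replicates 1 or 3 among the 9 fits that left out an array (0.0260 to 0.152).

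Of the 7 genes for enzymes from glucose 6-phosphate to the triose phosphates, 2 passed on Matrigel and 1 on collagen I, all lower than on plastic. Of all tested genes 10.4% passed on Matrigel and 6.12% on collagen I. Pfkm and Aldoc fell on Matrigel, and Gpi fell on collagen I. Pfkm, the muscle-type subunit of phosphofructokinase, which commits sugar to glycolysis, was at 8.33, 8.22, 8.16 and 8.23 on plastic, 8.31, 8.33 and 8.33 on collagen I, and 7.84 and 7.94 on Matrigel. The Matrigel arrays were below all 7 others. Pfkm fell by 0.35 against plastic (SE 0.070, adjusted p = 0.0164) and by 0.43 against collagen I (SE 0.074, adjusted p = 0.0251). The platelet-type subunit Pfkp was likewise lower on both Matrigel arrays, 8.004 and 8.138 against 8.39 to 8.71 on plastic and 8.46 to 8.97 on collagen I, but did not pass (-0.49 against plastic, SE 0.14, adjusted p = 0.0631). The liver-type subunit Pfkl ranged from 9.78 to 10.15 on all surfaces, and its groups overlapped. Aldoc, an aldolase best known from brain, was at 8.83, 8.74, 8.77 and 8.52 on plastic, 8.30, 8.35 and 7.97 on collagen I, and 7.09 and 8.11 on Matrigel. All 5 matrix values were below all plastic values, with Matrigel replicate 1 far below replicate 2. Aldoc fell by 1.12 on Matrigel (SE 0.25, adjusted p = 0.0229), and its difference of -0.51 on collagen I (SE 0.22) did not pass (adjusted p = 0.247). Aldoa, the main aldolase of muscle and most other tissues, stayed within 12.49 to 12.68, a difference of -0.0056 on Matrigel (95% interval -0.16 to 0.15). Gpi, the isomerase that makes fructose 6-phosphate, was at 11.60, 11.61, 11.46 and 11.59 on plastic, 11.32, 11.19 and 11.32 on collagen I, and 11.44 and 11.55 on Matrigel. The collagen arrays were below all others, and Gpi fell there by 0.29 (SE 0.069, adjusted p = 0.0463). Tpi1, which interconverts the triose phosphates, lay at 11.97 to 12.16 on plastic, 11.69 to 11.89 on collagen I and 11.47 and 11.81 on Matrigel, and its difference of -0.40 on Matrigel did not pass (SE 0.11, adjusted p = 0.0545). Without Matrigel replicate 1, Aldoc differed by -0.61 (adjusted p = 0.0885, and 0.0544 to 0.0635 without plastic replicates 1 or 2) and Pfkm by -0.30 (0.0997) from plastic and by -0.39 (0.0921) from collagen I, a call also lost without any 1 collagen array (0.0536 to 0.0862). The Gpi call held only without plastic replicate 3 among the 9 fits that left out an array (adjusted p from 0.0363 to 0.163). It was lost with the title letter as a fixed block (-0.30, limma adjusted p = 0.100) and held with the letter as a random block (0.0333).

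In the lower, ATP-yielding steps, 1 of 5 genes passed on each matrix, against 10.4% of all genes on Matrigel and 6.12% on collagen I. Both differences in these steps were small. Pgk1 encodes phosphoglycerate kinase, the first of these steps to make ATP. Pgk1 was at 11.93, 11.84, 11.72 and 11.85 on plastic, 11.68, 11.71 and 11.67 on collagen I, and 11.36 and 11.57 on Matrigel. All matrix values were below all plastic values, and Pgk1 fell by 0.37 on Matrigel (SE 0.085, adjusted p = 0.0279). The difference on collagen I was -0.15 (SE 0.075, adjusted p = 0.347). Pgam1, a phosphoglycerate mutase, was at 12.34, 12.30, 12.27 and 12.27 on plastic, 12.05, 11.96 and 12.07 on collagen I, and 12.08 and 12.16 on Matrigel. All matrix values again lay below plastic, and Pgam1 fell by 0.27 on collagen I (SE 0.058, adjusted p = 0.0298). The difference on Matrigel was -0.17 (SE 0.065, adjusted p = 0.152). A second, much dimmer entry for Pgam1 (mean 5.16) differed by -0.13 on collagen I and did not pass. Eno2, the neuron-type enolase, was at 9.64, 9.50, 9.87 and 9.26 on plastic, 10.26, 10.04 and 9.92 on collagen I, and 9.95 and 10.25 on Matrigel. All 5 matrix values were above all plastic values, yet neither difference passed, at 0.53 on Matrigel (SE 0.17, adjusted p = 0.0966) and 0.50 on collagen I (SE 0.15, adjusted p = 0.103), though the latter passed with the title letter as a fixed block (0.61, adjusted p = 0.00547). Eno1, the common enolase, and Pkm, pyruvate kinase, stayed within 12.61 to 12.83 on all arrays. The Pgk1 call was lost without Matrigel replicate 1 (adjusted p = 0.171) and without plastic replicates 1, 2 or 4 (0.0593 to 0.0673). The Pgam1 call was lost without any 1 collagen or plastic array (0.0510 to 0.114). It was lost with the title letter as a fixed block (limma adjusted p = 0.0890) and held with the letter as a random block (0.0208).

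Pdk4 had the clearest rise among the genes that steer pyruvate, and the genes of lactate production and export did not pass. PDK4 phosphorylates and inactivates pyruvate dehydrogenase, and its gene is a known target of PPAR and glucocorticoid signals as well as of fasting. Pdk4 read 3.531, 3.2081, 3.5179 and 3.1451 on plastic, 3.7313, 3.9955 and 3.6105 on collagen I, and 4.8993 and 4.9865 on Matrigel. All plastic and collagen values were dim and both Matrigel values were not. Pdk4 was at least 0.70 higher on Matrigel than on either of the other surfaces, at least 1.62-fold, with adjusted p = 0.000627 against plastic and 0.0138 against collagen I. It passed against plastic in every fit in which it was tested. Against collagen I it was lost with the title letter as a fixed block (limma adjusted p = 0.0687) and with only those groups in the fit (0.128). With the letter as a random block it passed against collagen I (0.0106). Pdk1, the PDK gene most often named as a HIF target, ranged from 8.01 to 8.52 on all arrays, and its groups overlapped (-0.11 on Matrigel, 95% interval -0.42 to 0.19). Ldha, the lactate dehydrogenase subunit that favours lactate, ranged from 12.90 to 13.27 and differed by -0.16 on Matrigel (95% interval -0.42 to 0.10) and -0.088 on collagen I (-0.32 to 0.14). The lactate exporter Slc16a3 (MCT4) was at 10.35 to 11.22 on plastic, 11.10 to 11.55 on collagen I and 10.81 to 10.85 on Matrigel. Its difference on collagen I was 0.43 (SE 0.20, adjusted p = 0.287). Slc16a1 (MCT1) was at 9.35 to 9.72, 9.57 to 10.00 and 9.64 to 10.39, and its difference on Matrigel was 0.49 (SE 0.21, adjusted p = 0.203).

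The PFKFB enzymes set the level of fructose 2,6-bisphosphate, the strongest activator of phosphofructokinase. Pfkfb3 read 7.10, 6.99, 7.57 and 6.33 on plastic, 6.98, 6.35 and 6.46 on collagen I, and 7.32 and 8.47 on Matrigel. The surfaces overlapped, and the difference of 0.90 on Matrigel (SE 0.39) did not pass (adjusted p = 0.199). Pfkfb4 was within 5.01 to 5.70 on all arrays and did not pass either.

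**Figure D3:**
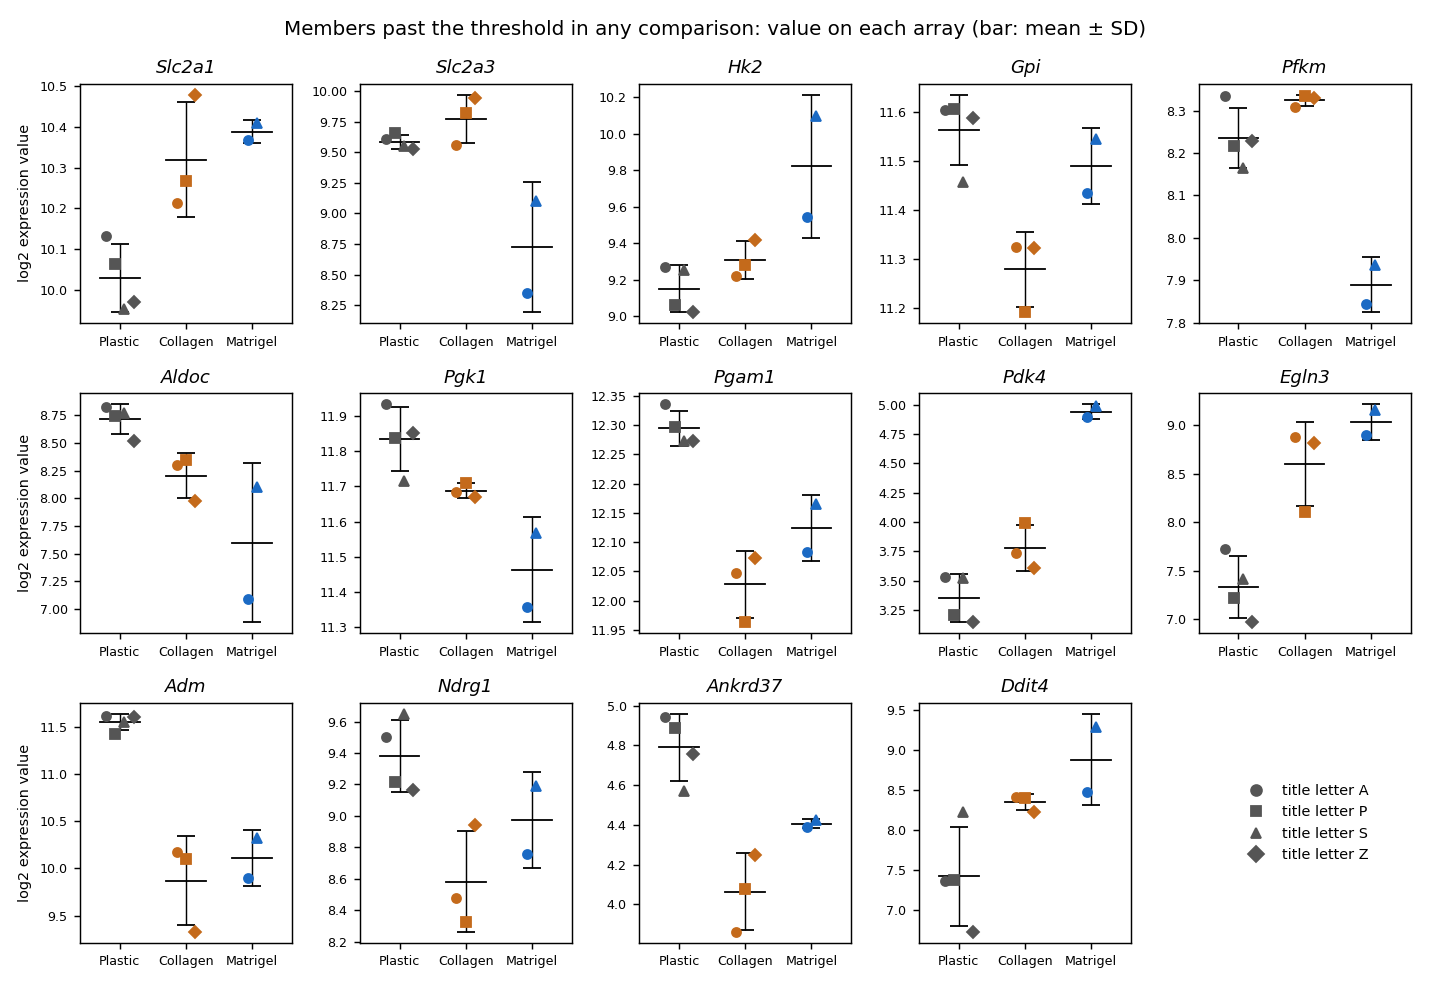
Log2 value on each array of the 14 genes that passed in any comparison, by surface. Each symbol is 1 array with its title letter, and bars are mean ± SD of 4, 3 and 2 arrays. Adm and Egln3, which passed on both matrices, separate plastic from both, as do Slc2a1, Aldoc, Pgk1, Pgam1 and Ankrd37. Pdk4, Slc2a3, Pfkm and Hk2 separate Matrigel from the rest.

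Among HIF and its hydroxylases, Egln3 rose on both matrices while Hif1a and Egln1 did not pass on either. Hif1a, the oxygen-regulated subunit, ranged from 11.13 to 11.45 on all 9 arrays. Its difference was -0.029 on Matrigel (95% interval -0.23 to 0.17, adjusted p = 0.894) and 0.0034 on collagen I (-0.17 to 0.18, adjusted p = 0.988). Egln3 encodes PHD3, a prolyl hydroxylase that HIF itself induces and that feeds back on it. Egln3 read 7.72, 7.22, 7.42 and 6.97 on plastic, 8.88, 8.10 and 8.82 on collagen I, and 8.91 and 9.16 on Matrigel. The highest plastic value was below the lowest matrix value, that of collagen replicate 2. Egln3 rose by 1.70 on Matrigel (SE 0.26, adjusted p = 0.00474), which is 3.25-fold, and by 1.27 on collagen I (SE 0.23, adjusted p = 0.0123), which is 2.41-fold. Egln1, which encodes PHD2, the main oxygen sensor, was at 8.12 to 8.38 on plastic, 8.09 to 8.18 on collagen I and 8.05 to 8.26 on Matrigel. On Matrigel the Egln3 call held in every fit run, and on collagen I it was lost without collagen replicate 1 (1.13, adjusted p = 0.0501) or 3 (1.16, adjusted p = 0.0542).

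The HIF targets outside glycolysis moved in opposite directions: Adm fell on both matrices, Ankrd37 and Ndrg1 fell on collagen I, and Ddit4 rose on Matrigel. Adm encodes adrenomedullin, a vasodilator peptide. Adm read 11.61, 11.42, 11.55 and 11.60 on plastic, 10.18, 10.10 and 9.33 on collagen I, and 9.90 and 10.32 on Matrigel. No matrix value came within 1 log2 unit of a plastic value. Adm fell by 1.68 on collagen I (SE 0.20, adjusted p = 0.00203), to 3.20-fold below plastic, and by 1.44 on Matrigel (SE 0.23, adjusted p = 0.00602), to 2.71-fold below. Ankrd37, an ankyrin repeat gene listed among direct HIF targets, was at 4.95, 4.89, 4.57 and 4.75 on plastic, 3.86, 4.08 and 4.25 on collagen I, and 4.39 and 4.42 on Matrigel. All matrix values were below all plastic values, and the collagen mean was dim. Ankrd37 was at least 0.54 lower on collagen I, at least 1.46-fold (adjusted p = 0.00744), and its difference on Matrigel was -0.38 (SE 0.13, adjusted p = 0.111). Ndrg1, a stress-responsive gene, was at 9.50, 9.22, 9.65 and 9.17 on plastic, 8.48, 8.33 and 8.94 on collagen I, and 8.76 and 9.19 on Matrigel. Collagen values were below all plastic values, whereas Matrigel replicate 2 lay within the plastic range. Ndrg1 fell by 0.80 on collagen I (SE 0.18, adjusted p = 0.0380). Ddit4 encodes REDD1, an inhibitor of mTORC1 that hypoxia, glucocorticoids and nutrient stress all induce. Ddit4 read 7.36, 7.38, 8.23 and 6.72 on plastic, 8.41, 8.40 and 8.23 on collagen I, and 8.48 and 9.29 on Matrigel. Plastic replicate 3 reached the lowest collagen value, and the other plastic arrays lay below every matrix array. Ddit4 rose by 1.46 on Matrigel (SE 0.37, adjusted p = 0.0390), and its difference of 0.93 on collagen I (SE 0.32) did not pass (adjusted p = 0.156) but passed with the title letter as a fixed block (1.18, adjusted p = 0.00367). The other targets did not pass. Kdm3a, a histone demethylase, was at 6.56 to 7.08 on plastic, 6.92 to 7.08 on collagen I, and 7.40 and 7.45 on Matrigel (0.50 on Matrigel, SE 0.15, adjusted p = 0.0698). Bnip3, a mitophagy receptor, stayed within 9.62 to 9.83, and Car9, carbonic anhydrase IX, within 4.36 to 5.04. Higd1a, a mitochondrial protein, was at 7.69 to 8.04 on plastic, 7.93 to 7.95 on collagen I, and 7.67 and 8.47 on Matrigel. The Adm call on collagen I held in every fit run. That on Matrigel was lost against the A and S plastic arrays alone (adjusted p = 0.0516) and without Matrigel replicate 1 (difference -1.23). The Ndrg1 call was lost without collagen replicates 1 or 2 or any 1 plastic array (0.0549 to 0.140). It was lost with the title letter as a fixed block (limma adjusted p = 0.0526) and held with the letter as a random block (0.0276). Ddit4 on Matrigel passed only without plastic replicate 3 among the 9 fits that left out an array (adjusted p from 0.00986 to 0.219).

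The start regions of these genes were read to show where the core of the HIF recognition sequence lies. RefSeq windows of 300 bases on build GRCr8, from 250 before to 50 after a transcript start, were held for 31 of the 34 genes, in 36 windows; Slc2a3, Pgk1 and Ndrg1 had none. The letters searched, on both strands, were ACGTG and GCGTG. The first of these overlaps the E-box that MYC, USF and other factors bind, which adds a C before it. Either motif was present in 23 of the 31 genes (74.2%), and by window in 66.7% of the 36 windows against 41.6% of all 33465 windows of that length. At least 2 separate sites were found in 41.7% of the 36 windows and in 16.0% of all. The windows of these genes had a median GC content of 63.65% against 51.7% over all windows. Since the list holds known HIF targets, these shares describe the list. The genes with a match included 7 of the 11 that passed in a comparison (63.6%) and 16 of the 20 that did not (80.0%). The sequences below run 5′ to 3′ on the gene's own strand, with matches in capitals. Ankrd37, lower on collagen I, and Slc2a1, higher on Matrigel, each hold 4 separate sites, and Ddit4, higher on Matrigel, holds 2. Among genes that passed in no comparison, whose sequences are not printed, Ldha holds 5 separate sites and Pdk1 holds 4. Adm and Egln3, the genes that passed on both matrices, hold none in this window.
Ankrd37, chr16:53001257-53001556, plus strand: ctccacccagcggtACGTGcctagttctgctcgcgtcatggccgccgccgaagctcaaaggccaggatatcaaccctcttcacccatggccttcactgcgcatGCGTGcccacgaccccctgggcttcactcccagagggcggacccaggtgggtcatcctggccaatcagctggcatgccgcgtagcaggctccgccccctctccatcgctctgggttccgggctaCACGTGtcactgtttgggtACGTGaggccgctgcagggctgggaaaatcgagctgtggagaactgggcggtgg
Slc2a1, chr5:138002272-138002571, plus strand: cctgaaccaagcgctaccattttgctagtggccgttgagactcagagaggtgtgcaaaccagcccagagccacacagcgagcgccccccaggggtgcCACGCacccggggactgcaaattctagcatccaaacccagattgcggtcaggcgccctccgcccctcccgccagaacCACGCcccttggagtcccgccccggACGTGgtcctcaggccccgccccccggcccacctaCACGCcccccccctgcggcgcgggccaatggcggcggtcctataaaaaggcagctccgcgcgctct
Ddit4, chr20:28436988-28437287, minus strand: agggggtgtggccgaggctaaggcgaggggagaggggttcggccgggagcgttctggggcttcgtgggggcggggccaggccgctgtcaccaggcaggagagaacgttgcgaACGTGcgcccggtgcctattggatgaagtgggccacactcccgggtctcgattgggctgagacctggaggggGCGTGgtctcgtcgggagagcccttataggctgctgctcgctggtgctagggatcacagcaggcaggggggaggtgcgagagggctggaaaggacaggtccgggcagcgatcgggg
Adm, chr1:174179950-174180249, plus strand: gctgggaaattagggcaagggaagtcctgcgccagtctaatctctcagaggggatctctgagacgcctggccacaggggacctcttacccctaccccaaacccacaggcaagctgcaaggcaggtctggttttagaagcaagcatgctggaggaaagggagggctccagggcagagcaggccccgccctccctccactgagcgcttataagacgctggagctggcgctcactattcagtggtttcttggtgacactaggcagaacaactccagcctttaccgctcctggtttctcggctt
Egln3, chr6:77410966-77411265, minus strand: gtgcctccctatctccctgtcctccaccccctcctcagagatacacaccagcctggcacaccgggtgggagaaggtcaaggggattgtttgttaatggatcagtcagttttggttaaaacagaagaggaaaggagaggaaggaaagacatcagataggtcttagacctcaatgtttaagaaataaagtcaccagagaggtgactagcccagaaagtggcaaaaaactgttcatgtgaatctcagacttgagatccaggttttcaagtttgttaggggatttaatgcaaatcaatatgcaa
The sites of Ankrd37 begin 236, 147, 23 and 4 bases before the start, and the one at 23 is an E-box. Those of Slc2a1 begin 153, 76, 51 and 16 bases before it, and those of Ddit4 138 and 66 bases before it.

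Differences between arrays that share a title letter were then compared. Deviations from the surface means correlated between same-letter collagen and plastic arrays for every shared letter, so these letters were read as pairs. For Adm the collagen value was below its plastic partner by 1.44 (A), 1.33 (P) and 2.27 (Z), and for Egln3 it was above by 1.16, 0.89 and 1.85. Ddit4 was higher on collagen I by 1.06, 1.02 and 1.51, and Eno2 by 0.62, 0.54 and 0.65. With the letter as a fixed block in limma, Ddit4 rose on collagen I by 1.18 (SE 0.11, adjusted p = 0.00367) and Eno2 by 0.61 (SE 0.065, adjusted p = 0.00547). Gpi, Pgam1 and Ndrg1 no longer passed, which left 5 of the 34 genes on collagen I, where 1072 of all 14506 genes passed. With the letter as a random block neither gain held, at 0.98 for Ddit4 (adjusted p = 0.0827) and 0.52 for Eno2 (adjusted p = 0.0547). On Matrigel the same-letter differences from plastic were -1.74 (A) and -0.66 (S) for Aldoc and -1.26 and -0.46 for Slc2a3. Higd1a was lower by 0.38 in letter A and higher by 0.77 in letter S. Egln3 was higher by 1.18 and 1.75 and Ddit4 by 1.13 and 1.05.

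**Figure D4:**
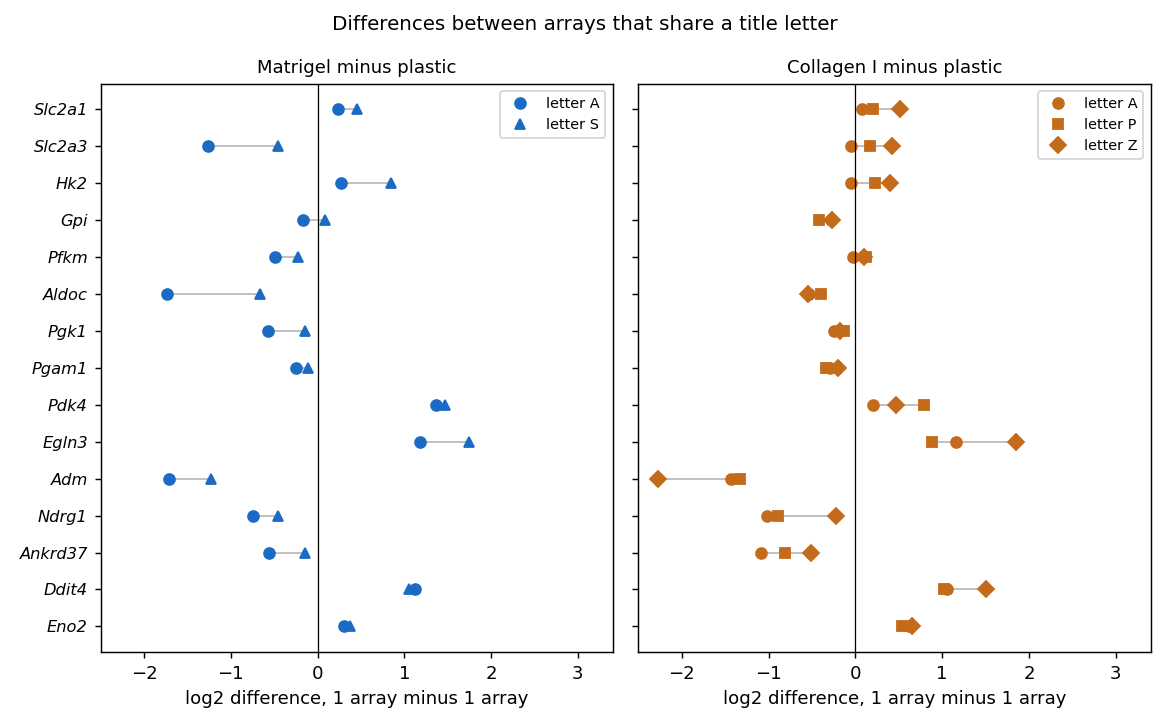
Log2 difference between single arrays that share a title letter, for the 14 genes that passed in any comparison and for Eno2. Left, Matrigel minus plastic (letters A and S). Right, collagen I minus plastic (letters A, P and Z). Points of 1 gene joined by a line show how far letters differ, widest on Matrigel for Aldoc and Slc2a3.

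The genes also differed in how much arrays of 1 surface varied. Pfkfb3 and Ddit4 had residual SDs of 0.53 and 0.50, at the 97.1 and 96.6 percentiles of genes that were not dim, whose median was 0.138. Egln3 and Aldoc followed at 0.34 and 0.33. Pgam1, Pkm and Aldoa were among the steadiest, with residual SDs of 0.046, 0.053 and 0.053, at or below the 4.3 percentile.

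The neighbouring pathways are given by list, each to be read against the 10.4% of all genes that passed on Matrigel and the 6.12% that passed on collagen I. Of 20 other genes of glycolysis and gluconeogenesis, Pfkfb1 rose (0.45) and Pgm2 fell by 0.38 on Matrigel, and none passed on collagen I (limma, 5 at an unadjusted p under 0.05). Gapdh, the glycolytic dehydrogenase often used for normalisation, differed by -0.17 on Matrigel (SE 0.068, adjusted p = 0.181) and -0.10 on collagen I (SE 0.060, adjusted p = 0.461). Ldhb, the lactate dehydrogenase subunit that favours pyruvate, differed by -0.80 (SE 0.23, adjusted p = 0.0614) and -0.81 (SE 0.20, adjusted p = 0.0537). Of 27 genes of pyruvate dehydrogenase and the citric acid cycle, Idh3b fell by 0.36 on Matrigel and Suclg2 by 0.40 on collagen I. In the pentose phosphate pathway, which branches from glucose 6-phosphate, Taldo1 (1.02) and Tkt (0.40) rose on Matrigel, while Prps2, which makes the nucleotide precursor PRPP, fell by 0.99 on Matrigel and 1.26 on collagen I, among 8 genes measured. Of 10 genes of glycogen metabolism, Ugp2, Gyg1 and Pygb fell on Matrigel by 0.93, 0.57 and 0.70, and Ugp2 on collagen I by 0.78. Of 13 other sugar and monocarboxylate transporters, Slc16a10 rose by 1.74 on Matrigel and Slc2a2, the GLUT2 gene and an islet marker, was at least 0.17 higher there, and none passed on collagen I (limma, 3 at an unadjusted p under 0.05).

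Of 46 other genes of the HIF system and its targets, 4 rose and 7 fell on Matrigel, where 4.52% of all genes rose and 5.85% fell. On collagen I 4 rose and 6 fell, where 2.95% and 3.17% of all genes did. Igfbp3, an IGF-binding protein, fell by 2.28 on Matrigel and 1.76 on collagen I. The stress hormone gene Stc2 fell by 3.82 and 2.49, and Edn1, the endothelin 1 gene, by at least 3.08 on Matrigel and by 2.77 on collagen I. Bhlhe41, a transcriptional repressor, rose by 1.89 and 2.37, and Angptl4, a lipase inhibitor that PPAR factors also induce, by 1.98 and 1.37. Vegfa, the angiogenic growth factor gene, did not pass, with differences of 0.68 (SE 0.28, adjusted p = 0.177) and 0.59 (SE 0.24, adjusted p = 0.238). Epas1, which encodes HIF-2alpha, differed by 0.64 (SE 0.30, adjusted p = 0.230) and 0.41 (SE 0.26, adjusted p = 0.473). Of 18 genes of the PPAR system and fat oxidation, the group to which Pdk4 is also assigned in textbooks, 8 rose and Acadm fell on Matrigel (9 of 18, against 10.4% of all genes), and 4 rose on collagen I (4 of 18, against 6.12%). Plin2, a lipid droplet coat gene, rose by 1.88 and 0.95, and Cpt1a, which admits fatty acids to mitochondria, by 1.87 and 1.24. The median difference of the 46 HIF-linked genes was -0.0034 on Matrigel and -0.083 on collagen I, and that of the 18 PPAR-linked genes 0.37 and 0.12.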

How the data were processed

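Expression was measured on Affymetrix whole-transcript rat arrays, 9 in all, with 1 array per sample. The deposited values are log2 expression values that the authors made with RMA, per the submitters' processing notes; software and build: not given in the sources used here. RMA scales arrays to each other, so a difference is relative to the other genes. The deposited values did not share exactly 1 distribution, with array medians over all entries from 4.08 (plastic replicate 1) to 4.18 (Matrigel replicate 2). Of 29215 array entries, 15310 were paired with 1 gene symbol, 323 with several and 13582 with none. A RefSeq gene table of build GRCr8 held 15279 of the 15310 and changed 0 symbols. The entry with the highest mean was kept for each gene, giving 14506. Probes may also bind transcripts of close paralogs. Values were identical on at least 2 arrays for 8192 genes, 5 of the 34 among them.

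The linear model of limma 3.58.1 (R 4.3.3) gave each surface a mean, used all 9 arrays and left 6 residual degrees of freedom. Variances were moderated by empirical Bayes, and p-values adjusted by Benjamini-Hochberg within each comparison. A gene passed at a two-sided adjusted p under 0.05. The code was tested on simulated data. For a group with a mean under log2 4.25, the bound is the brighter mean minus the dim group's mean with each array set at least to that level. All 34 genes are named. From the other lists up to 4 genes per comparison with the smallest p are named, and Gapdh, Ldhb, Vegfa and Epas1 whatever their values. Genes and lists were chosen with earlier results of these data known.

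Whether title letters pair samples was checked by correlating deviations from the surface means across genes. Same-letter collagen and plastic arrays gave r = 0.196 (A), 0.234 (P) and 0.269 (Z), and were read as pairs; collagen A gave 0.243 with plastic S. Matrigel and plastic gave -0.131 (A) and 0.406 (S), and were not read as pairs. With 2 Matrigel arrays the deviations from their mean are mirror images, so this check cannot decide whether those letters pair. The fits with the letter as a block applied it to the Matrigel arrays as well. Alternatives were other scalings, filters, entries, moderation, array weights, fits with 2 groups, the letter as a block, a minimum difference, and leaving out each array. The number of arrays limits the precision. Promoter windows came from RefSeq; array probe coordinates were not used.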

Additional observations from a re-analysis of the deposited data

Results flagged for a closer look

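Among the 4 plastic arrays, a single array stood apart from the other 3 for 3 of the 34 genes, where chance gives about 1 in 20 groups. Gpi was 11.46 on plastic replicate 3, below the others at 11.59 to 11.61. Ldha was 12.90 on the same array, against 13.22 to 13.27. Pfkl was 10.15 on plastic replicate 2, against 9.89 to 9.91. Groups of 3 and 2 arrays were too small to be looked at in this way.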

How the results depend on the processing

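Of 394 values of the 19 differences that passed, recomputed under the alternatives, 285 kept their direction and passed, 109 kept their direction and no longer passed, and 0 reversed. On Matrigel against plastic the count of genes that passed was 10, where 1504 of all 14506 genes did. It was 6 with only those groups in the fit (1082 of all genes) and 6 with the title letter as a fixed replicate block (1504 of all genes). It was 2 against the A and S plastic arrays alone (Pdk4 and Egln3, with 628 of all genes), and 5 at a minimum difference of 1 (431 of all genes). On collagen I against plastic it was 6 (888 of all genes), and 2 at that minimum (316 of all genes). On Matrigel against collagen I it was 3, and 0 with only those groups in the fit (limma, 11 of the 34 at an unadjusted p under 0.05, 0 of all genes called) and 0 with the fixed replicate block (9 of the 34). Leaving out 1 array gave 3 to 10, 2 to 6 and 1 to 5. On Matrigel against plastic the count was 5, 4 and 6 without plastic replicates 1, 2 and 4, where 989, 1163 and 1045 of all genes passed. On collagen I it was 2 without collagen replicate 1 (698 of all genes). It was 3 without collagen replicates 2 or 3 (555 and 610 of all genes) or plastic replicates 1, 2 or 4 (552, 698 and 639). On Matrigel against collagen I it was 1 without any 1 collagen array and 5 without Matrigel replicate 2. An arm of 1 array is assumed to vary like the others. The letter as a random block (correlation 0.153) gave 11, 6 and 3. Without Matrigel replicate 1 all 5 falls on Matrigel against plastic were smaller, at -0.49 (Slc2a3), -0.30 (Pfkm), -0.61 (Aldoc), -0.27 (Pgk1) and -1.23 (Adm). Without Matrigel replicate 2 these falls were larger, at -1.24, -0.39, -1.62, -0.48 and -1.64. The 5 rises were larger without Matrigel replicate 1. The re-centring on all entries was chosen after seeing the data. Pdk4 has no value under the filter at the 40th percentile.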
